A study of Mus musculus with 18 samples.

Results

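Axonemal dynein and cilia motility genes were examined in cultured testes of ICR mice, an outbred strain. The members were taken from a list of 47 gene symbols that cover the dynein arms, the proteins that assemble and dock them, the spokes, the central apparatus, the tektins and a pair of transcription factors. The symbols matched 48 genes of the deposited table by NCBI gene number, because Spag6 is both a current symbol and the older name of Spag6l, and both genes were kept. A member also had to reach 1 FPKM in at least 3 of the 18 samples, where FPKM is the number of fragments scaled to transcript length and to the mapped fragments of the sample. This left 45 members of the 15790 genes that passed the same minimum, out of 22657 in the table. Dnah5, Dnah11 and Rsph4a were below it.

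There were 6 groups with 3 samples in each. Mice without busulfan gave the testes of A0, A10 and A50, where the number is the concentration in µg/mL of alginate oligosaccharides (AOS), short sugar chains from a seaweed polymer, in the medium. Mice injected with busulfan gave those of B0, BA10 and BA50, kept at 0, 10 and 50 µg/mL AOS in the same way. Busulfan is an alkylating agent used to deplete germ cells. Busulfan was given once at 40 µg per g body weight to mice 3 weeks old and the testes were taken 2 weeks later. The mice without busulfan were of a similar age. All testes stood 48 h in DMEM/F12 medium with fetal bovine serum. The methods give several testes per treatment in repeated cultures, but not whether a sample holds 1 testis or more, and no label says which culture a sample came from, so the p-values measure the spread between these samples only. The AOS concentrations are those of the sample labels, while the design text of the series gives the same figures in mg/kg body weight.

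A motile cilium and the tail of a sperm share an axoneme, a ring of doublet microtubules around a central pair. Outer and inner dynein arms, motors that walk from doublet to doublet, bend it, while radial spokes, the central apparatus and the nexin-dynein regulatory complex set when each arm is active. The arms are built in the cytoplasm by assembly factors before they are carried into the axoneme and docked. In the testis these transcripts are made by germ cells from meiosis onwards, and the tail is assembled in spermatids. Loss of several of these proteins causes immotile cilia, male infertility or both.

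The depth of the samples is unknown. Low values were divided by the lowest value above 0 of the same gene over the samples. Of 683 such ratios, 4.54% lay within 0.05 of a whole number, where chance gives 10%. The FPKM of 1 read differs between samples of unlike depth, so this could not show whether whole reads underlie the values. The FPKM of a sample summed to between 463970 and 511274. Replicate samples had a Pearson's r of 0.929 to 0.988 across genes, and A10 replicate 3 stood apart from the other A10 samples. The values of the members ran together across the libraries of a group. A10 replicate 3 held the highest A10 value for 43 of 45 members, A0 replicate 2 the lowest A0 value for 42, B0 replicate 3 the lowest B0 value for 41, and BA50 replicate 1 the lowest BA50 value for 43. The median coefficient of variation of the members within a group was 6.96% in A50 and 21.2% to 31.4% in the other groups. Counts of members below are not counts of independent events.

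The levels of the members spanned a mean over the 18 samples of 2.01 FPKM for Rfx3 to 918 FPKM for Meig1, with a median of 20.2 FPKM. Because FPKM is per length, these levels can be set against each other. Every member was present by the rule. The listed genes below the minimum, Dnah5, Dnah11 and Rsph4a, were close to 0 and are set beside relatives of the sperm tail. Not all genes of epithelial cilia were low. Foxj1, which switches on motile cilia genes in epithelia, had a mean of 13.5 FPKM. Dnah17 and Dnah8, outer arm heavy chains of the sperm tail, had means of 9.55 and 49.5 FPKM. Dnah5, an outer arm heavy chain of airway cilia, had 0.11, 0.05 and 0.08 FPKM in A0, 0.07, 0.07 and 0.05 in A10 and 0.09, 0.13 and 0.08 in A50, and 0.04, 0.07 and 0.05 FPKM in B0, 0.06, 0.08 and 0.05 in BA10 and 0.04, 0.14 and 0.09 in BA50. Dnah11, a second heavy chain of airway cilia, had 0.19, 0.28 and 0.11 FPKM in A0, 0.06, 0.14 and 0.11 in A10 and 0.28, 0.18 and 0.08 in A50, and 0.05, 0.12 and 0.05 FPKM in B0, 0.06, 0.08 and 0.1 in BA10 and 0.04, 0.13 and 0.08 in BA50. Neither reached 1 FPKM in any sample. Rsph4a, a spoke head protein of epithelial cilia, had 0.09, 0.12 and 0.16 FPKM in A0, 0.09, 0.09 and 0.08 in A10 and 0.04, 0.18 and 0.09 in A50, and 0.12, 0.09 and 0.16 FPKM in B0, 0.12, 0.09 and 0.13 in BA10 and 0.19, 0.08 and 0.06 in BA50, so it too stayed under 1 FPKM in all 18 samples. Its testis counterpart Rsph6a had a mean of 36.1 FPKM. Just inside the minimum were Dnah10, which reached 1 FPKM in 15 samples, and Dnah2 and Dnah12, which did so in 16, while the nearest below it, Dnah11, reached 0.28 FPKM at most. Other defining genes of multiciliated epithelium were near 0 as well: Mcidas had a mean of 0.0122 FPKM, Gmnc 0.0311, Cdhr3 0.0283, Sec14l3 0.0633 and Dnah9 0.308. Of the 12 markers of that epithelium 5 were tested, of which Mlf1 (180 FPKM) and Fam183b (49.3 FPKM) had the highest means. The summed level of the 12 markers lay between 158 and 253 FPKM in A0, between 172 and 431 in A10, 222 and 263 in A50, 168 and 235 in B0, 211 and 358 in BA10 and 253 and 390 in BA50, and Mcidas was at 0 in all A10 samples.

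**Figure D1:**
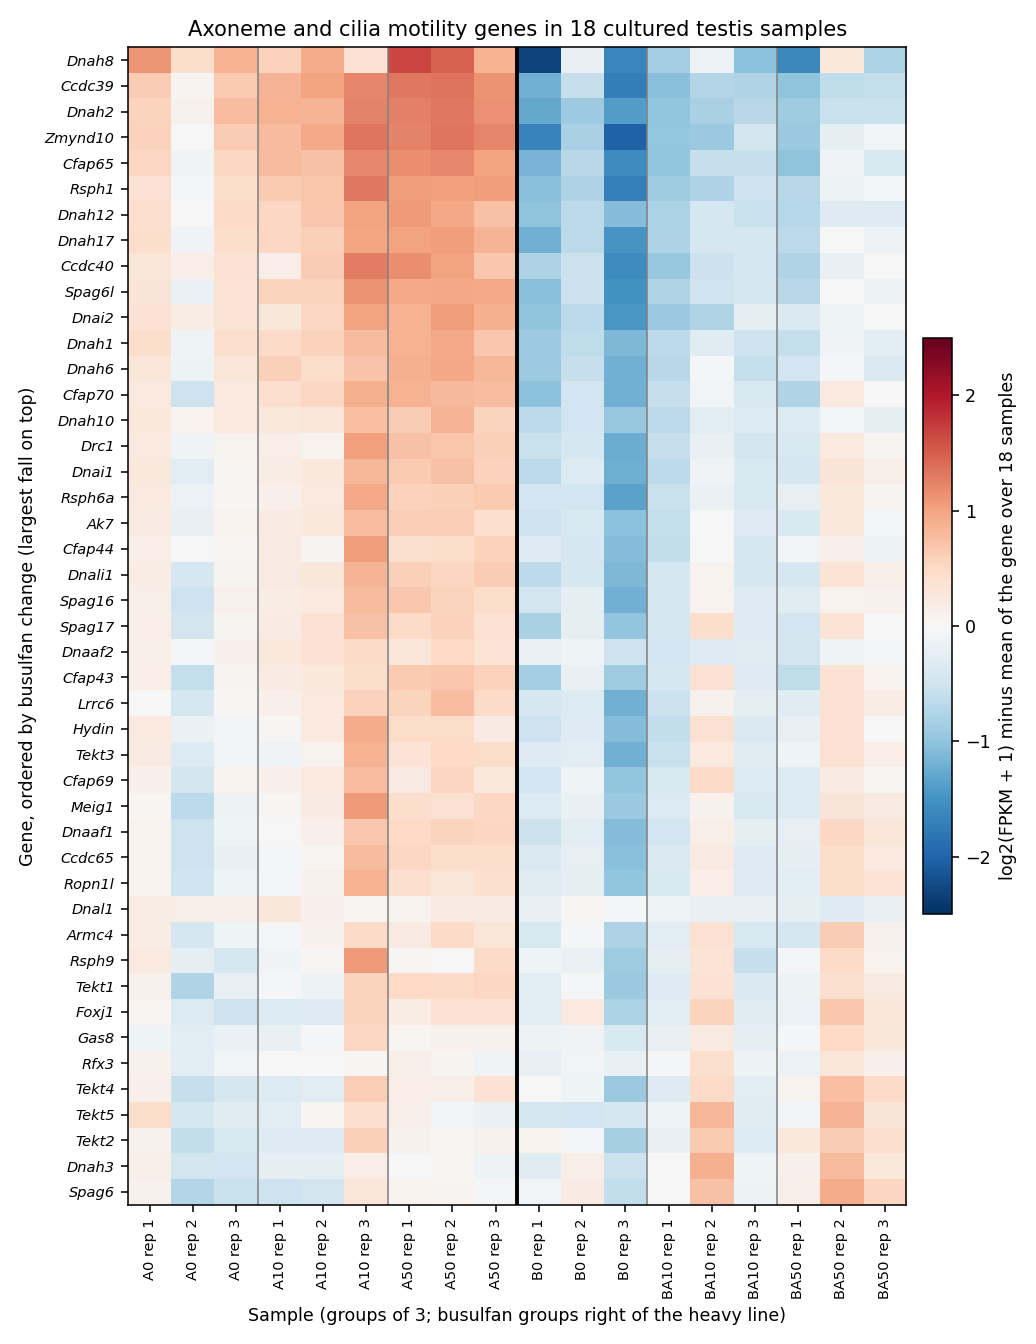
Each row is a member and each column a sample, and the colour gives log2(FPKM + 1) minus the mean of that gene over the 18 samples, with genes ordered by their busulfan change. In most upper rows the 9 busulfan samples are lower than the 9 others, in the lowest rows they are not, and the columns of B0 replicate 3 and A10 replicate 3 stand out within their groups.

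To ask how busulfan left this gene set, the 9 busulfan samples were compared with the 9 others within each AOS concentration. Of the 45 members tested, 13 fell (28.9%, against 3.52% of all genes tested) at an adjusted p (limma, Benjamini-Hochberg over all genes tested) of at most 0.001 and a log2 change of 1 or more in either direction. These limits are those of the study's methods, which set them on another test, DEGseq. None rose by the limma rule, where 0.0887% of all genes did. At an adjusted p under 0.05, 31 members fell (68.9%, against 24.8% of all genes tested) and 0 rose, where 13.3% of all genes did. At an unadjusted p under 0.05, 34 members were lower (75.6%, against 28% of all genes tested) and 1, Spag6, was higher (2.22%, against 19.4%). For 10 members all 9 busulfan values lay below all 9 others (22.2%, against 9.66% of all genes tested), 8 of them among the 13, and for 0 they lay above (against 0.513%). The median log2 change over the members was -0.55, against 0.01 over all genes tested, and the members ran from -1.84 for Dnah8 to 0.39 for Spag6. In bulk tissue, fewer cells of a type and less RNA per cell cannot be told apart.

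**Figure D2:**
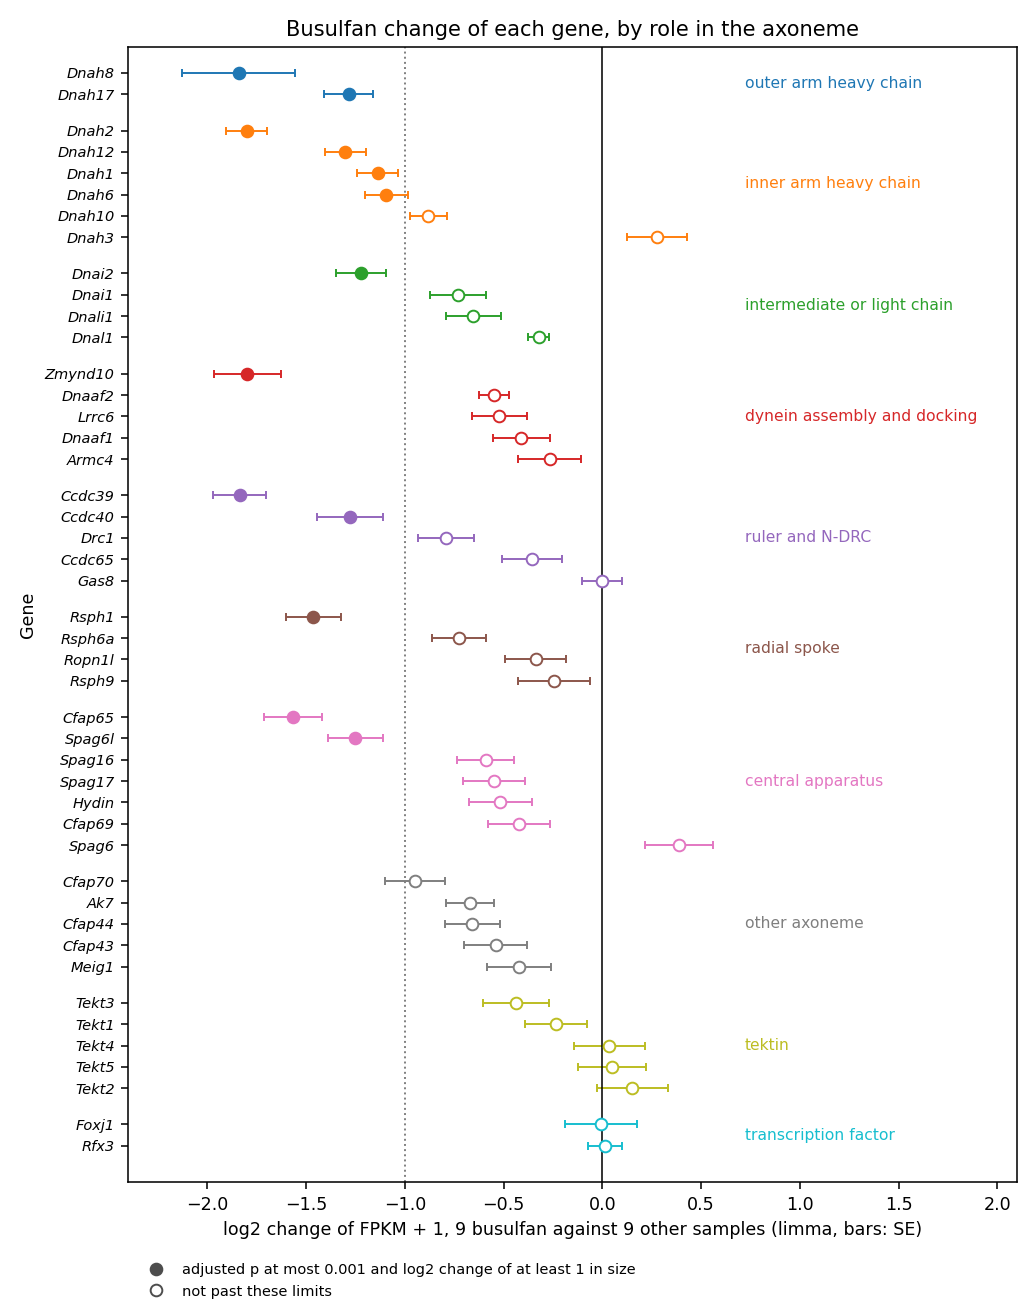
The log2 change of FPKM + 1 between the 9 busulfan samples and the 9 others is drawn for each member with its standard error (limma), grouped by role, with filled points for the 13 that passed the limits. Heavy chains of the outer and most of the inner arms sit left of -1, while Tekt2, Tekt4, Tekt5, Foxj1, Rfx3, Gas8, Dnah3 and Spag6 sit near or right of 0.

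Heavy chains, the motor subunits, had the lowest median of the roles. Of the 8 tested, 6 fell by the strict rule: both of the outer arm (median log2 change -1.56) and 4 of 6 of the inner arm (median -1.12). Dnah8 (NCBI gene 13417, chromosome 17, 30626935 to 30875762, GRCm38.p6) was at 83.1, 51.8 and 69.9 FPKM in A0, 57.6, 73.6 and 49.1 in A10 and 123, 108 and 70.3 in A50, and at 6.87, 33.6 and 11.6 FPKM in B0, 20.6, 34.4 and 18.2 in BA10 and 11.8, 45.9 and 21.6 in BA50. The highest busulfan value lay just below the lowest of the others, and A10 replicate 3, the highest A10 sample for nearly all members, was the lowest here. Its log2 change was -1.84 (SE 0.29, adjusted p = 0.000121), the largest fall and also the largest error among the members. Dnah17 (NCBI gene 69926, chromosome 11, 118021723 to 118130719, GRCm38.p6) was at 11.6, 7.77 and 11.5 FPKM in A0, 12.3, 13.1 and 17.4 in A10 and 17.6, 18.1 and 15.7 in A50, and at 3.02, 4.79 and 2.36 FPKM in B0, 4.47, 5.93 and 5.84 in BA10 and 4.89, 8.29 and 7.35 in BA50. A single busulfan sample, BA50 replicate 2, overlapped the lowest A0 sample, and the log2 change was -1.28 (SE 0.13, adjusted p = 9.97e-07).

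Among inner arm heavy chains, Dnah2 (NCBI gene 327954, chromosome 11, 69420807 to 69549108, GRCm38.p6) had the most regular fall. It was at 5.0, 3.4 and 6.0 FPKM in A0, 6.41, 6.33 and 8.67 in A10 and 8.78, 9.14 and 7.96 in A50, and at 0.68, 1.16 and 0.54 FPKM in B0, 1.06, 1.32 and 1.51 in BA10 and 1.2, 1.77 and 1.78 in BA50. The lowest value without busulfan was above the highest with it, the mean was 5.6 times higher without busulfan, and the log2 change was -1.80 (SE 0.10, adjusted p = 3.23e-09), the smallest adjusted p of the members. Its level is low, so a fold on the FPKM + 1 scale understates the change. Dnah12 (NCBI gene 110083, chromosome 14, 26691554 to 26892719, GRCm38.p6) was at 3.92, 2.66 and 4.13 FPKM in A0, 4.29, 4.92 and 6.42 in A10 and 6.74, 6.2 and 5.17 in A50, and at 0.85, 1.36 and 0.73 FPKM in B0, 1.14, 1.71 and 1.51 in BA10 and 1.26, 1.97 and 1.96 in BA50. These groups did not overlap either (log2 change -1.30, SE 0.10, adjusted p = 1.05e-07). Dnah1, which is needed for the sperm tail to form at normal length, was at 5.63, 3.57 and 5.58 FPKM in A0, 5.83, 6.25 and 7.49 in A10 and 7.94, 8.47 and 6.84 in A50, and at 1.61, 2.13 and 1.25 FPKM in B0, 2.09, 2.97 and 2.41 in BA10 and 2.22, 3.61 and 3.06 in BA50. BA50 replicate 2 reached the lowest A0 value, and the log2 change was -1.14 (SE 0.10, adjusted p = 4.42e-07). Dnah6 was at 4.27, 2.94 and 4.29 FPKM in A0, 5.48, 4.95 and 6.01 in A10 and 6.98, 7.38 and 6.68 in A50, and at 1.29, 1.88 and 0.87 FPKM in B0, 1.66, 3.15 and 1.85 in BA10 and 2.07, 3.14 and 2.36 in BA50. BA10 replicate 2 and BA50 replicate 2 overlapped the lowest A0 sample, and its log2 change of -1.09 (SE 0.11, adjusted p = 1.29e-06) was the smallest among the 13. Dnah10 was at 2.47, 2.07 and 2.4 FPKM in A0, 2.46, 2.57 and 3.89 in A10 and 3.51, 4.18 and 3.24 in A50, and at 0.84, 1.06 and 0.49 FPKM in B0, 0.81, 1.39 and 1.29 in BA10 and 1.28, 1.8 and 1.48 in BA50. It kept the groups apart at a low level, with a log2 change of -0.88 (SE 0.09, adjusted p = 2.57e-06), past the p limit but not the fold limit. Dnah3 behaved differently from the other inner arm chains, with a mean of 4.08 FPKM without busulfan and 5.37 with it (log2 change 0.28, SE 0.15, adjusted p = 0.169). Exons of Dnah3 share 11.2% of their bases with a gene on the other strand, Lyrm1, and reads without strand cannot be told apart there.

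The intermediate and light chains of the arms all fell at an adjusted p under 0.05, 4 of 4, but only Dnai2 by the strict rule. Dnai2, an intermediate chain of the outer arm, was at 13.1, 11.4 and 12.9 FPKM in A0, 12.4, 14.6 and 21 in A10 and 19, 21.4 and 19.2 in A50, and at 4.44, 5.95 and 2.96 FPKM in B0, 4.76, 5.51 and 8.4 in BA10 and 7.46, 9.15 and 9.8 in BA50. The groups did not overlap, and the log2 change was -1.22 (SE 0.13, adjusted p = 1.84e-06). Its partner Dnai1 had a log2 change of -0.73 (SE 0.14, adjusted p = 0.000799), and Dnali1, an inner arm light chain, of -0.65 (SE 0.14, adjusted p = 0.00184). Dnal1, an outer arm light chain, had a small but even fall from a mean of 4.7 to 3.56 FPKM (log2 change -0.32, SE 0.05, adjusted p = 0.000173), and all busulfan values lay below all others.

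Of the assembly and docking factors, Zmynd10 stood apart from the rest. Zmynd10 (NCBI gene 114602, chromosome 9, 107546872 to 107551321, GRCm38.p6), a cytoplasmic factor for the assembly of both kinds of arm, was at 54.1, 36 and 56 FPKM in A0, 62.8, 70.6 and 93 in A10 and 86.2, 91.8 and 85.1 in A50, and at 10.5, 20.1 and 8.06 FPKM in B0, 18, 18.4 and 25.8 in BA10 and 18.4, 30.3 and 34.4 in BA50. No busulfan sample reached the lowest of the others, and the log2 change was -1.80 (SE 0.17, adjusted p = 6.11e-07), a mean 3.45 times higher without busulfan. Dnaaf2, Lrrc6 and Dnaaf1, which act in the same assembly step, fell at an adjusted p under 0.05 with log2 changes of -0.55, -0.52 and -0.41. For Armc4, which docks outer arms on the doublet, the log2 change was -0.27 (SE 0.16, adjusted p = 0.201). Dnaaf2 and Dnaaf1 share 32.7% and 17% of their exon bases with genes on the other strand, so their values may hold reads of those genes. Dnaaf2 also shares 38.7% of its exon bases with genes on its own strand, so its value is uncertain.

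Ccdc39 and Ccdc40 form the molecular ruler that spaces the inner arms and spokes along the doublet, and both fell. Ccdc39 (NCBI gene 51938, chromosome 3, 33810757 to 33844325, GRCm38.p6) was at 30.9, 20.7 and 31.5 FPKM in A0, 36.2, 40.5 and 46.9 in A10 and 50.2, 52 and 44.1 in A50, and at 7.91, 12.8 and 5.23 FPKM in B0, 8.97, 11.5 and 11.2 in BA10 and 9.25, 12.3 and 12.6 in BA50. The highest busulfan value was 12.8 FPKM and the lowest of the others 20.7 FPKM, and the log2 change was -1.84 (SE 0.14, adjusted p = 5.01e-08). Exons of Ccdc39 overlap Ttc14 on the other strand over 34.2% of their bases. Ccdc40 went from a mean of 17.5 to 6.63 FPKM without overlap (log2 change -1.28, SE 0.17, adjusted p = 2.25e-05). The 3 subunits of the nexin-dynein regulatory complex differed among themselves. Drc1 had a log2 change of -0.79 (SE 0.14, adjusted p = 0.00046) and Ccdc65 of -0.36 (SE 0.15, adjusted p = 0.0786). Gas8 was at 20.5, 17.9 and 19.6 FPKM in A0, 19.4, 21.5 and 31.9 in A10 and 22.8, 23.8 and 24 in A50, and at 20.2, 20.8 and 16.8 FPKM in B0, 19.2, 26.1 and 18.6 in BA10 and 21.6, 31.7 and 27.1 in BA50. Its groups overlapped widely (log2 change -0.00, SE 0.10, adjusted p = 0.981), with a 95% interval from -0.22 to 0.21.

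Rsph1 and Ropn1l, both of the radial spokes, were the most abundant members after Meig1. Rsph1 (NCBI gene 22092, chromosome 17, 31255019 to 31277296, GRCm38.p6), a spoke head protein, was at 286, 215 and 303 FPKM in A0, 348, 358 and 548 in A10 and 457, 450.1 and 456 in A50, and at 107, 129 and 66.7 FPKM in B0, 119, 129 and 154 in BA10 and 135, 201 and 212 in BA50. The highest busulfan sample was just under the lowest A0 sample, and the log2 change was -1.46 (SE 0.14, adjusted p = 7.55e-07). Ropn1l, a spoke and fibrous sheath protein that binds kinase anchors, was at 380.2, 253 and 330.1 FPKM in A0, 342, 381 and 646 in A10 and 473, 439 and 467 in A50, and at 286, 301 and 179.8 FPKM in B0, 273, 400.5 and 285 in BA10 and 292, 492 and 450.2 in BA50. These groups overlapped, with a log2 change of -0.34 (SE 0.16, adjusted p = 0.101). Rsph6a was at 40.2, 30.2 and 34.6 FPKM in A0, 37.1, 40.4 and 65.8 in A10 and 51.1, 51.4 and 53.5 in A50, and at 24, 24 and 12.8 FPKM in B0, 22.6, 30.1 and 25.6 in BA10 and 29.4, 40.9 and 35.4 in BA50. It fell by the weaker rule only (log2 change -0.73, SE 0.14, adjusted p = 0.0006). Rsph9, another spoke head protein, had a log2 change of -0.24 (SE 0.18, adjusted p = 0.311).

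In the central apparatus, the pair of tubules with its projections, 6 of 7 members fell at an adjusted p under 0.05 and 2 by the strict rule. Cfap65 went from a mean of 22.3 to 6.9 FPKM (log2 change -1.57, SE 0.15, adjusted p = 6.31e-07). Spag6l (NCBI gene 50525, chromosome 16, 16753016 to 16829363, GRCm38.p6), which is needed for a stable central pair in mouse sperm, was at 61.2, 43.4 and 62.4 FPKM in A0, 72.5, 72.6 and 107 in A10 and 94.7, 96.7 and 95.4 in A50, and at 23.1, 33.1 and 16.4 FPKM in B0, 28.5, 34.3 and 35.5 in BA10 and 29.9, 48.8 and 44.3 in BA50. Only BA50 replicates 2 and 3 reached the lowest A0 sample, and the log2 change was -1.25 (SE 0.14, adjusted p = 3.4e-06). Spag16, Spag17, Hydin and Cfap69 had log2 changes of -0.59, -0.55, -0.52 and -0.42, each past an adjusted p of 0.05. Spag6 (NCBI gene 381350, chromosome 2, 18694011 to 18749746, GRCm38.p6), the close relative of Spag6l on another chromosome, was the exception. It was at 39.5, 21.7 and 24.8 FPKM in A0, 25.3, 26.4 and 45.6 in A10 and 39.1, 38.5 and 36.1 in A50, and at 35.1, 42.8 and 23.6 FPKM in B0, 36.5, 62.2 and 33.8 in BA10 and 40.7, 71 and 54 in BA50. The groups overlapped, and the log2 change was 0.39 (SE 0.17, adjusted p = 0.0931). This member passed an adjusted p of 0.05 in the higher direction under quantile normalization (0.046), under upper quartile scaling (0.047), without A0 replicate 1 (0.0455) and without A10 replicate 3 (0.0356), and in no other alternative. Spag6 and Spag6l share 18 stretches of 50 bases, 0.535% and 0.391% of those in their transcripts. Little of either transcript thus matches both over 50 bases without a mismatch. Reads placed with mismatches were not examined, so some reads of 1 gene may be counted in the other. Exons of Spag6 share 11.5% of their bases with Gm20539 on the other strand, whose reads cannot be told apart there.

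The other axonemal proteins had smaller changes. Cfap70, Ak7, Cfap44 and Cfap43 had log2 changes of -0.95, -0.67, -0.66 and -0.54, all past an adjusted p of 0.05 and none past the strict rule. Meig1 (NCBI gene 104362, chromosome 2, 3409043 to 3422648, GRCm38.p6), which carries cargo along the manchette of the spermatid and had the highest level of the members, was at 896, 556 and 796 FPKM in A0, 889.6, 999.8 and 1833 in A10 and 1189.5, 1128 and 1241 in A50, and at 688, 768 and 456 FPKM in B0, 684, 939 and 658 in BA10 and 689, 1085 and 1023 in BA50. The values of both sets overlapped, from 456 FPKM in B0 replicate 3 to 1833 FPKM in A10 replicate 3. Its log2 change was -0.42 (SE 0.16, adjusted p = 0.0545).

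The tektins, filament proteins inside the doublets, had a median log2 change of 0.04, with 0 of 5 past the strict rule and 1, Tekt3, past an adjusted p of 0.05. Tekt1 was at 111, 60.8 and 89.5 FPKM in A0, 101, 94.3 and 152 in A10 and 145, 144 and 147 in A50, and at 85.3, 99.3 and 53.5 FPKM in B0, 82.1, 132 and 80.3 in BA10 and 93.7, 136 and 120.3 in BA50. Its log2 change was -0.24 (SE 0.16, adjusted p = 0.249). Tekt2 was at 88.1, 53.3 and 61.3 FPKM in A0, 65.2, 65.2 and 124 in A10 and 88.7, 84.5 and 88.5 in A50, and at 87.3, 80.0 and 45.4 FPKM in B0, 71.6, 130.1 and 64.4 in BA10 and 97.7, 128 and 110.4 in BA50. Its highest values were in BA10 replicate 2 and BA50 replicate 2, and its log2 change was 0.15 (SE 0.18, adjusted p = 0.519), where 25.7% of its exon bases overlap Gm12945 on the other strand. Tekt3 was at 57.1, 38.6 and 46.7 FPKM in A0, 46.3, 52 and 90.2 in A10 and 62.1, 69.9 and 67.3 in A50, and at 38.9, 40.9 and 20.6 FPKM in B0, 32.8, 58.1 and 39.8 in BA10 and 45.1, 64.4 and 55.3 in BA50. Its fall was small against its spread (log2 change -0.44, SE 0.16, adjusted p = 0.0484). Tekt4 was at 89.2, 54.6 and 61.1 FPKM in A0, 64.3, 68.3 and 127 in A10 and 91.8, 90.9 and 106 in A50, and at 82.2, 75.7 and 42.7 FPKM in B0, 65.6, 114 and 67.1 in BA10 and 86.8, 138 and 114 in BA50. The groups overlapped (log2 change 0.04, SE 0.18, adjusted p = 0.891). Tekt5, which is largely restricted to the testis, was at 21.8, 11.2 and 12.6 FPKM in A0, 12.7, 15.9 and 21.3 in A10 and 17.3, 14.8 and 13.8 in A50, and at 11.4, 10.9 and 11.4 FPKM in B0, 14.4, 28.6 and 12.6 in BA10 and 14.9, 29.1 and 19.8 in BA50. Its highest values were those of BA10 replicate 2 and BA50 replicate 2, and its log2 change was 0.05 (SE 0.17, adjusted p = 0.846).

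Foxj1 and Rfx3, transcription factors that switch on motile cilia genes in epithelia, did not pass either rule. Foxj1 was at 13.3, 9.88 and 8.65 FPKM in A0, 9.93, 10.1 and 19.5 in A10 and 14.7, 17.2 and 17.1 in A50, and at 10.4, 15.5 and 6.97 FPKM in B0, 10.5, 19.6 and 10.3 in BA10 and 11.6, 21 and 16 in BA50. These groups overlapped almost fully (log2 change -0.00, SE 0.18, adjusted p = 0.987), and the 95% interval ran from -0.39 to 0.39. Rfx3 was at 2.21, 1.51 and 1.84 FPKM in A0, 2.03, 1.97 and 2.07 in A10 and 2.32, 2.13 and 1.81 in A50, and at 1.59, 1.86 and 1.64 FPKM in B0, 1.93, 2.96 and 1.75 in BA10 and 1.72, 2.67 and 2.25 in BA50. Its groups overlapped, with a log2 change of 0.01 (SE 0.08, adjusted p = 0.906) and a 95% interval from -0.17 to 0.20. The direction of Foxj1, Gas8, Rfx3, Tekt4 and Tekt5 changed with the library left out, within -0.10 to 0.10 for Foxj1, and for Foxj1 and Gas8 also with the scaling.

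The members therefore ranged from clear falls to no detected change, and ratios within a sample describe this without a model. The pairs were chosen after their values were seen, so ratios that differ with busulfan follow from the choice and are a description only. The Spag6 to Spag6l ratio was 0.349 to 0.646 in the 9 samples without busulfan and 0.952 to 1.81 in the 9 with it. The ratio of Dnah3 to Dnah12, both inner arm heavy chains, was 0.669 to 1.31 and 2.73 to 5.35. These ranges did not overlap in either pair. The ratio of Tekt2 to Zmynd10 was 0.92 to 1.63 without busulfan and 2.5 to 8.28 with it, and that of Rsph9 to Rsph1, both spoke head proteins, 0.0874 to 0.165 and 0.169 to 0.39.

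**Figure D3:**
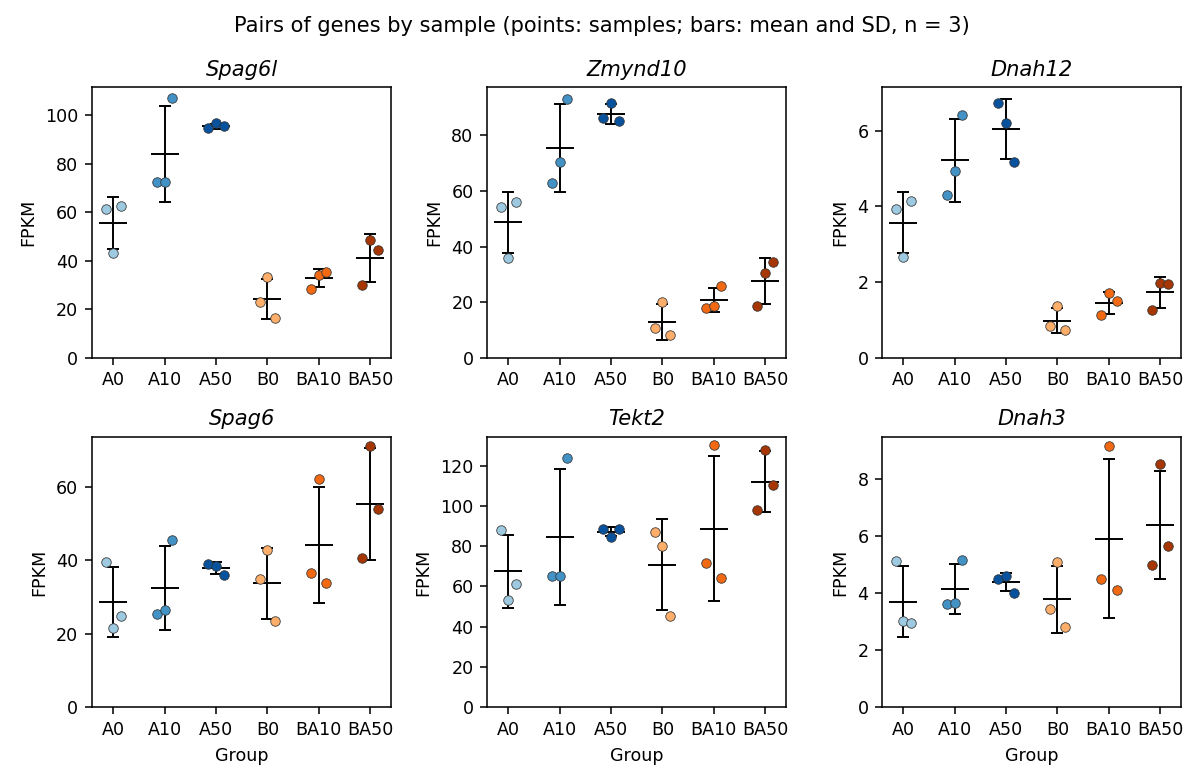
FPKM of 3 pairs of members is plotted by group, with a point for each sample and bars for the mean and SD (n = 3). The upper genes, Spag6l, Zmynd10 and Dnah12, are lower in the busulfan groups, while the lower genes, Spag6, Tekt2 and Dnah3, overlap between A and B groups at 0 and 10 µg/mL AOS and are at their highest mean in BA50, where all values lie above those of A50.

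RefSeq promoters (250 bases before to 50 after a transcript start, GRCm38.p6) were at hand for 40 of the 48 genes, and were searched on both strands for binding motifs of the factors named above. The motifs were kept after the counts of several shapes had been seen. GTTGCC, the core of the X-box bound by RFX factors, was in 16 of 40 (40%). It was in 14.1% of all 27025 genes with a promoter, and in 15.8% of the tested genes among them. TGTTTA, a forkhead core of the kind that Foxj1 binds, was in 12 of 40 (30%), against 15.1% of all and 10.8% of those tested. These 12 include Dnah5 and Dnah11, which were below the minimum and so not among those tested. The whole palindromic X-box was in 0 of the 40 and in 0.0222% of all genes with a promoter. Of the 11 strictly called members with a promoter, 3 held the X-box core and 4 the forkhead core, and of the 11 with an adjusted p of 0.05 or more, 7 held the X-box core and 1 the forkhead core. A match is a description of letters and not a site. Promoters of 2 members that fell, of the pair Spag6l and Spag6, and of a tektin are shown so that members that fell can be set beside members with no detected fall, with the X-box core in capitals on either strand (GGCAAC is GTTGCC read on the other strand).
Zmynd10, chr9:107547054-107547353, plus strand: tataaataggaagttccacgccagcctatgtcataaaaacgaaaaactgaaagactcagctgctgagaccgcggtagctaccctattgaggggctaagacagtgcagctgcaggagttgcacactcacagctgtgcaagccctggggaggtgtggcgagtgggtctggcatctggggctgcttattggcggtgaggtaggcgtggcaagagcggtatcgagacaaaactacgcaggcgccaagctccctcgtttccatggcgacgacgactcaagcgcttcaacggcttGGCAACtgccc
Ccdc39, chr3:33844261-33844560, minus strand: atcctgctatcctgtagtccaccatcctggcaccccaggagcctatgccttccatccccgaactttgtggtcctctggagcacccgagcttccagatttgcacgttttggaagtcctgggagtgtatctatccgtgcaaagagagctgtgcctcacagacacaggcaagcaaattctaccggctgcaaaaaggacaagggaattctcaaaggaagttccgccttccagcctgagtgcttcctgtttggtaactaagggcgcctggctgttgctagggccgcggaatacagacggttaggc
Spag6l, chr16:16829314-16829613, minus strand: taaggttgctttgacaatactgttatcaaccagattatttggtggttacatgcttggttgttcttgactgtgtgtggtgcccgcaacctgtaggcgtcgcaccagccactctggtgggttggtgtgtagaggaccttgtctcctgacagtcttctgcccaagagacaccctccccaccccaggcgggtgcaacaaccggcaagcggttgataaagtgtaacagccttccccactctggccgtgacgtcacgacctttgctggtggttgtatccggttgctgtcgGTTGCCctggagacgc
Spag6, chr2:18698772-18699071, plus strand: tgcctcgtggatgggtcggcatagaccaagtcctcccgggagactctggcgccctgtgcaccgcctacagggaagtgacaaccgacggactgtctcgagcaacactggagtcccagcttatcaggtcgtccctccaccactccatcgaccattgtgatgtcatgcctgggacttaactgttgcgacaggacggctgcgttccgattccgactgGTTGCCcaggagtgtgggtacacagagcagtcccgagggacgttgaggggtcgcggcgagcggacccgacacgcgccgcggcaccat
Tekt4, chr17:25471340-25471639, plus strand: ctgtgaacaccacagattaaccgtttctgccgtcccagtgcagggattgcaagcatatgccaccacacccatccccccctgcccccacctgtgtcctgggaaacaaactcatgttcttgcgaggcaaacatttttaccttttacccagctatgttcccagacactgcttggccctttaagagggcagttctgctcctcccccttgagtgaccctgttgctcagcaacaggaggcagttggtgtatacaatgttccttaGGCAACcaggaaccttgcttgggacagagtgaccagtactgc
The core begins 35 bases after the start used in Spag6l, 40 after it in Zmynd10, 9 after it in Tekt4 and 37 before it in Spag6, and Ccdc39 holds none in this window. Spag6l and Spag6 both hold the core, and their log2 changes were -1.25 and 0.39. TGACGTCA, a motif that was also searched, was in 2 of the 40 promoters, those of Dnah6 and Spag6l. It was in 3.25% of the tested genes with a promoter. Whether any motif bears on the changes was not tested.

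The busulfan comparison was also made at each AOS concentration, and these comparisons share no samples. Without AOS, 8 members fell by the strict rule in B0 compared to A0 (17.8%, against 2.49% of all genes tested), and 18 at an adjusted p under 0.05 (against 12.3%). With 10 µg/mL AOS, 9 fell in BA10 compared to A10 (20%, against 3% of all genes tested), and 21 at an adjusted p under 0.05 (against 15.2%). With 50 µg/mL AOS, 9 fell in BA50 compared to A50 (20%, against 3.36% of all genes tested), and 17 at an adjusted p under 0.05 (against 16.2%). The median log2 changes of the members were -0.60, -0.65 and -0.56, and 0 members rose by the strict rule at any concentration, where 0.0507%, 0.0127% and 0.038% of all genes tested did, and 0 rose at an adjusted p under 0.05, where 1.47%, 3.74% and 3.7% did. At an unadjusted p under 0.05, 27, 27 and 24 members were lower, against 19.3%, 20.7% and 21.7% of all genes tested. The groups did not overlap, with busulfan lower, for 22 members without AOS (48.9%, against 22.7% of all genes tested), 25 with 10 µg/mL (55.6%, against 20.2%) and 30 with 50 µg/mL (66.7%, against 25.7%). With 50 µg/mL they did not overlap in the other direction for Spag6, Dnah3 and Tekt2, 3 members (6.67%, against 16%). Ccdc39, Dnah1, Dnah2, Dnah12, Dnah17, Rsph1 and Zmynd10 passed the strict rule at all 3 concentrations with all 18 samples in the fit. With the 2 groups compared alone in the fit, 0, 0 and 2 members passed. Zmynd10 had log2 changes of -1.91, -1.81 and -1.67, each with an SE of 0.29. Dnah8 had -2.17, -1.30 and -2.05, each with an SE of 0.50, and passed the strict rule at none of the 3. Spag6 had 0.24, 0.43 and 0.50, each with an SE of 0.30. The counts by the strict rule rest on few samples. In B0 compared to A0 the count was 1 without A0 replicate 1, A0 replicate 3 or B0 replicate 1, 2 without B0 replicate 3 and 12 without B0 replicate 2. In BA10 compared to A10 it was 3 without A10 replicate 3 or BA10 replicate 1, 4 without A10 replicate 2, 5 without BA10 replicate 2 and 6 without each of the other two. In BA50 compared to A50 it was 3 without A50 replicate 1, A50 replicate 2, BA50 replicate 1 or BA50 replicate 3, 4 without A50 replicate 3 and 6 without BA50 replicate 2. The count over all doses was 13 or 14 whichever of the 18 samples was left out, and 28 to 33 members fell at an adjusted p under 0.05. Shares of all genes tested are not given with a sample left out.

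For AOS, 0 members passed the strict rule in either direction, with or without busulfan, and 0 passed an adjusted p of 0.05 with all samples in the fit (limma). No gene of the table passed the strict rule in these comparisons either, 0% of all genes tested. With the same limits on DEGseq, the study reported many genes higher and many lower in each of these comparisons. The values nevertheless leaned to one side. Both concentrations share the A0 samples without busulfan and the B0 samples after it, so these leans are not independent. In A10 compared to A0 the median log2 change of the members was 0.42 (all genes tested -0.06), and 11 members were higher at an unadjusted p under 0.05 (24.4%, against 4.51% of all genes tested) with 0 lower (against 10.7%). The smallest adjusted p was 0.322. For 17 members all A10 values were above all A0 values (37.8%, against 7.81% of all genes tested), and for 0 they were below (against 12.2%). The median was 0.20 without A10 replicate 3 and 0.27 without A0 replicate 2. Marker lists of the testicular cells moved both ways, and their part in the result was not tested. The median log2 change was 0.42 for spermatocyte, 0.32 for spermatid, 0.19 for peritubular myoid cell and 0.03 for Leydig cell markers. It was -0.29 for spermatogonium markers, and lower still for Sertoli cell and macrophage markers. Sertoli cell markers summed to 3245 to 4491 FPKM in A0 and to 1143 to 2929 FPKM in A10, with a median log2 change of -0.74 and 8 of 11 lower at an unadjusted p under 0.05. Macrophage markers summed to 582 to 812 FPKM in A0 and to 291 to 675 FPKM in A10, with a median of -0.53 and 3 of 7 lower in the same way. No Sertoli cell or macrophage marker was at 0 in all samples of a group. The Sertoli cell markers were lowest in A10 replicate 3. Their median of log2(FPKM + 1) minus the mean of each gene was -1.26 there, and 0.05 and -0.27 in A10 replicates 1 and 2.

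In A50 compared to A0 all 45 members had a log2 change above 0, with a median of 0.59 (all genes tested -0.06). The median of the members ran from 0.46 to 0.69 with a sample left out. At an unadjusted p under 0.05, 27 were higher (60%, against 9.85% of all genes tested) and 0 lower (against 5.8%), and the smallest adjusted p was 0.161, for Dnah2. All A50 values were above all A0 values for 36 members (80%, against 17.6% of all genes tested) and below them for 0 (against 23.2%). Zmynd10 had a log2 change of 0.86 (SE 0.29, adjusted p = 0.23) and Cfap70 of 0.83 (SE 0.26, adjusted p = 0.216). The A50 samples lay close together, as in Spag6l, where they were at 94.7, 96.7 and 95.4 FPKM. At the other end, Dnal1 had a log2 change of 0.01 and Tekt5 of 0.06.

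After busulfan, the median log2 change of the members in BA10 compared to B0 was 0.39 (all genes tested -0.03), and 4 members were higher at an unadjusted p under 0.05 (8.89%, against 1.89% of all genes tested, with 0 lower against 3.17%), Zmynd10, Dnah17, Dnah6 and Dnah1. The median was 0.16 without B0 replicate 3, 0.23 without BA10 replicate 2 and 0.42 to 0.55 with the others left out. Values of BA10 were all above those of B0 for 1 member, Tekt5 (2.22%, against 3.64% of all genes tested) and below them for 0 (against 7.75%). In BA50 compared to B0 the median was 0.64 (all genes tested -0.04), and 33 members were higher at an unadjusted p under 0.05 (73.3%, against 12.7% of all genes tested) with 0 lower (against 11.6%). The smallest adjusted p was 0.101. The BA50 samples all exceeded the B0 samples for 21 members (46.7%, against 11.2% of all genes tested), and all fell short of them for 0 (against 13.5%). Zmynd10 had the largest log2 change, 1.09 (SE 0.29, adjusted p = 0.102), followed by Dnai2 with 0.88 (SE 0.22, adjusted p = 0.101) and Rsph1 with 0.88 (SE 0.24, adjusted p = 0.104). Only Dnah17 and Zmynd10 had a mean at least 2 times higher in BA50 than in B0, by 2.02 and 2.15 times. The members with the smallest change among those with an unadjusted p under 0.05 were Gas8 (0.44), Dnah12 (0.47) and Dnah10 (0.50), and Dnal1 had -0.19.

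This comparison turned on BA50 replicate 1, which held the lowest BA50 value for most members. Without it, 13 members passed an adjusted p of 0.05 and were higher in BA50: Zmynd10, Rsph1, Dnaaf1, Dnah17, Cfap70, Dnali1, Dnai2, Dnai1, Spag6l, Lrrc6, Rsph6a, Cfap65 and Dnah1, with log2 changes from 0.71 for Dnah1 to 1.35 for Zmynd10 and adjusted p values from 0.0365 to 0.0489. Without any other sample 0 members passed. The share of all genes tested that passed without BA50 replicate 1 is not given, so the 13 cannot be read as particular to the members. The median log2 change of the members ranged from 0.45 to 0.85 over the 6 samples left out in turn. The cause of the low values in BA50 replicate 1 was not tested.

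**Figure D4:**
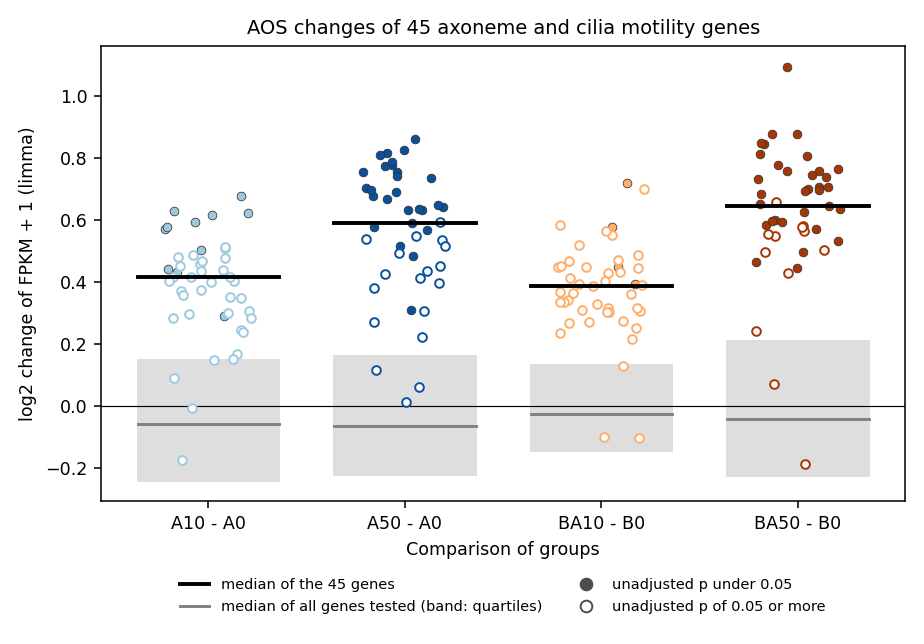
Each point is the log2 change of a member (limma) for AOS at 10 or 50 µg/mL against 0 µg/mL, without (A) and after busulfan (B), filled where the unadjusted p was under 0.05. The black lines are the medians of the 45 members, 0.42, 0.59, 0.39 and 0.64, and lie above the grey bands that hold the middle of all genes tested.

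The difference between the AOS change after busulfan and the one without it was tested directly. Its median over the members was -0.01 for 10 µg/mL and 0.09 for 50 µg/mL, with 0 members at an unadjusted p under 0.05 at either concentration (all genes tested 1.8% and 2.93% higher, 2.17% and 3.36% lower). The smallest adjusted p values were 0.910 and 0.877. A difference was therefore not detected, but the SE of such a difference was 0.41 for Zmynd10 and 0.43 for Spag6, so only large ones could have been. The group means can also be set in order. A50 had the highest mean for 33 members and B0 the lowest for 39. BA50 had a mean at or above that of A0 for 25 of 45. Among these were Spag6 at 1.92 times the A0 mean, Dnah3 at 1.73, Tekt2 at 1.66 and Foxj1 at 1.53, while Dnah2 reached 0.33, Dnah8 0.387 and Ccdc39 0.412 of it. BA50 and A0 were not compared by a test, as they differ in both treatments. The order of the group means was not counted over all genes tested, so these counts do not set the members apart from other genes.

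Of 61 further axoneme and motility genes, 59 were in the table and 58 were tested. Over all doses, 11 fell by the strict rule (against 3.52% of all genes tested) and 37 at an adjusted p under 0.05 (against 24.8%). At an adjusted p under 0.05, 0 were higher (against 13.3%), and the median log2 change was -0.51. Their medians were 0.57 in A50 compared to A0 and 0.60 in BA50 compared to B0, again with 0 past an adjusted p of 0.05. The gene of that list with the highest level, Cfap206, had a log2 change over all doses of -0.40 (adjusted p = 0.0549). The regulators of ciliogenesis were mixed, with 6 of 10 tested. Mybl1, a regulator of meiosis in male germ cells, fell with a log2 change of -1.52 (SE 0.10, adjusted p = 9.53e-09), Rfx2, which drives the spermatid program, with -0.66 (adjusted p = 0.00122), Rfx4 with -0.50 (adjusted p = 0.0245) and Ccno with -0.29 (adjusted p = 0.00241), while E2f4 rose with 0.17 (adjusted p = 0.0192), all over all doses. E2f5 had 0.05 (adjusted p = 0.746).

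Marker lists of the testicular cells moved beside these results, and their part in them was not tested. Of 18 spermatocyte markers, 11 fell by the strict rule over all doses (against 3.52% of all genes tested) and 17 at an adjusted p under 0.05 (against 24.8%). Their median log2 change was -1.24. Without busulfan the markers summed to 1677 to 2512 FPKM (A0), 2484 to 4037 FPKM (A10) and 3162 to 3316 FPKM (A50), and after it to 924 to 1633 FPKM (B0), 1463 to 2250 FPKM (BA10) and 1591 to 2648 FPKM (BA50). The most abundant of them, Ldhc and Ybx2, had log2 changes of -0.58 (adjusted p = 0.0103) and -0.62 (adjusted p = 0.00714). Sycp3, a synaptonemal complex protein named after its values were seen, had means of 113 FPKM in A0 and 10.8 FPKM in B0. Of 21 spermatid markers, 1 fell (Ldhal6b, log2 change -0.64, adjusted p = 0.00378) and 1 rose (Tssk6, log2 change 0.54, adjusted p = 0.0412), with a median of 0.39. At an adjusted p under 0.05, 24.8% of all genes tested fell and 13.3% rose. In BA50 compared to B0 the spermatid median was 0.87 and that of the spermatocyte markers 0.52, with 0 of either past an adjusted p of 0.05. Spermatid markers summed to 3604 to 6301 FPKM (A0), 3732 to 7686 FPKM (A10) and 4919 to 5972 FPKM (A50) without busulfan, and to 3702 to 5013 FPKM (B0), 5340 to 9649 FPKM (BA10) and 7061 to 14427 FPKM (BA50) after it. Of 14 spermatogonium markers, 12 were tested, 6 of which fell by the strict rule (against 3.52% of all genes tested), with a median of -0.95. No marker of the spermatocyte or spermatid list was at 0 in all samples of a group.

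**Figure D5:**
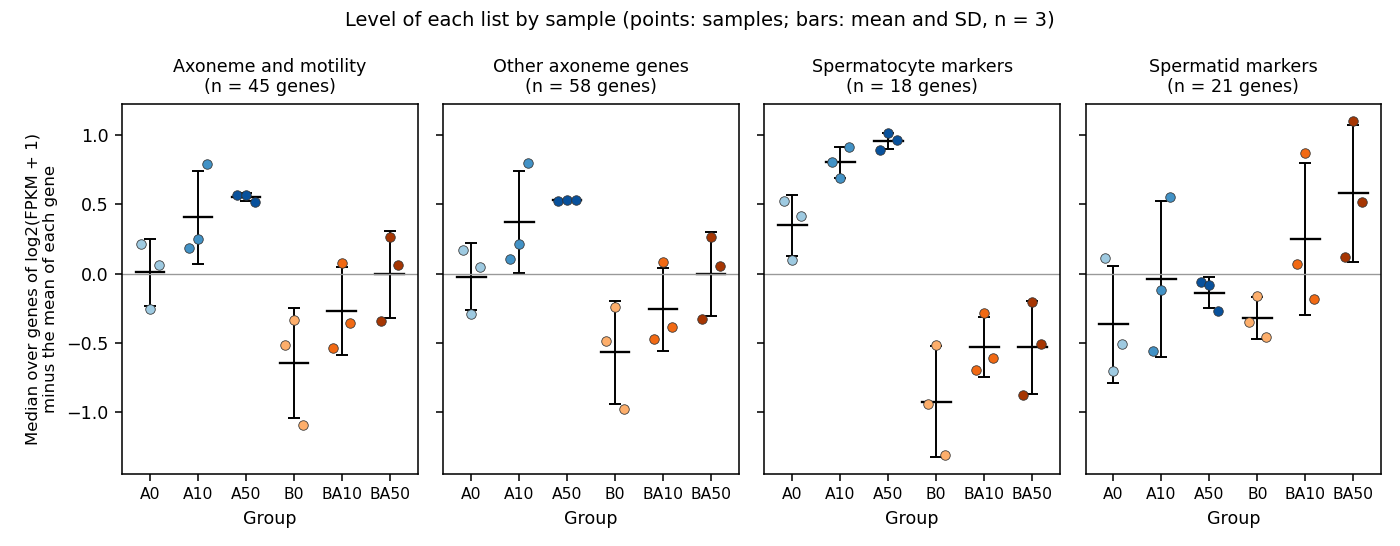
For each sample and list the median over its genes of log2(FPKM + 1) minus the mean of each gene is plotted, with bars for the mean and SD of a group (n = 3). The members and the other axoneme genes follow each other sample by sample, spermatocyte markers lie below 0 in all 9 busulfan samples, and spermatid markers are highest in BA50.

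Markers of duct epithelium and fat were higher in B0. Of 9 simple duct epithelium markers tested, 7 rose in B0 compared to A0 at an adjusted p under 0.05 (median log2 change 1.55), and all 7 fat cell markers did (median 2.56). Of all genes tested, 1.47% did. The summed duct level was 116 to 284 FPKM in B0 and 50.9 to 77.6 in A0, and the summed fat level 207 to 887 and 62.6 to 84.9. In BA50 the sums were 44.0 to 72.5 and 101 to 138 FPKM. In BA50 compared to B0, 3 duct and 4 fat markers fell at an adjusted p under 0.05 (against 0.0887% of all genes tested). These lists thus moved with the B0 group while the members were at their lowest there, and their part in the B0 values was not tested. In BA10 compared to A10 and in BA50 compared to A50, 0 markers of either list passed an adjusted p of 0.05. The summed fat level was still 68.0 to 123 FPKM in BA10 and 42.5 to 61.0 in A10. It was 101 to 138 FPKM in BA50 and 61 to 63 in A50. The part of fat and duct tissue in these comparisons was not tested either. Of the other lists, 11 Sertoli cell markers had a median of 0.29 over all doses, 8 Leydig cell markers 0.34, 6 peritubular myoid cell markers 0.08 and 7 macrophage markers 0.15. In the same order, 1, 2, 0 and 1 were higher at an adjusted p under 0.05, against 13.3% of all genes tested.

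Among the genes outside the list whose values over the 18 samples were most like the members' mean were Ccdc181, Cenpn, Tdrd7 and Trim69. Their Pearson's r with the mean of the members' z-scores ran from 0.996 for Ccdc181 to 0.995 for Trim69, over samples that share the group differences and the library effects above. Ccdc181 had means of 79.9 FPKM in A0, 116 in A50, 54.4 in B0 and 86.1 in BA50. Among the members, Dnali1 was closest to their mean (r = 0.993), and Dnal1 (0.374), Spag6 (0.393) and Dnah3 (0.4) were farthest.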

How the data were processed

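RNA of 18 cultured mouse testis samples was sequenced by the authors from poly(A) RNA with random-hexamer cDNA, with no step that marks strand. They deposited a table of FPKM per gene. The labels' processing notes name HISAT, Bowtie2, RSEM and GRCm38.p5 without roles, while the supplementary methods name SOAPaligner and RPKM, so the steps behind the values are uncertain. Depth is unknown and read counts were not at hand, so no count test or counting interval could be given.

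Genes with at least 1 FPKM in 3 or more samples were tested on log2(FPKM + 1) with limma 3.58.1 in R 4.3.3 (lmFit, eBayes with trend), with group means over all 18 samples in 1 fit and Benjamini-Hochberg adjustment over 15790 genes. A fold on this scale understates the change of low genes. The fit was tested on simulated data. The remaining steps used Python 3.11.15 and pandas 2.3.3. An exact permutation test of 3 against 3 samples cannot go below 0.1 and was not used. Replicate numbers did not pair the samples in general (9 of 21 same-number pairs correlated over 0.1, from -0.429 to 0.562), except B0 with BA50, where all 3 pairs did. Full values were given for the extremes of the busulfan and AOS 50 comparisons, the most abundant members and a list chosen by role. Members, lists and motifs were chosen with earlier results of these data known. Alternatives were the scaling, pseudocount, filter, samples in the fit, replicate block and leaving out each sample. Some genes that the naming rule would give are not reported here.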

Additional observations from a re-analysis of the deposited data

How the results depend on the processing

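Over all AOS doses, 13 members fell by the strict rule and 13 to 14 with a sample left out, 31 with an adjusted p under 0.05 alone and 21 with an adjusted p of at most 0.001 and no fold limit. In B0 compared to A0 the 8 members became 5 with a replicate block, 0 with those groups alone in the fit, 5 with a mean of at least 5 FPKM, 4 under quantile normalization, 18 with an adjusted p under 0.05, 14 with a ratio of at least 2 and 1 to 12 with a sample left out. With AOS 10 the 9 became 6 with a replicate block, 0 with those groups alone, 21 with an adjusted p under 0.05, 15 by the ratio and 3 to 6 with a sample left out. With AOS 50 the 9 became 6 with a replicate block, 2 with those groups alone, 5 with a mean of at least 5 FPKM, 17 with an adjusted p under 0.05, 14 by the ratio and 3 to 6 with a sample left out. In BA50 compared to B0, 2 members passed by the ratio. Why the counts moved was not tested. Some of these settings also hold fewer samples or genes in the fit. Near 0, Foxj1 changed sign under quantile normalization (0.06) and upper quartile scaling (0.04), as did Gas8 (0.05 and 0.05). With a sample left out, Foxj1 ran from -0.10 to 0.10, Gas8 from -0.05 to 0.07, Rfx3 from -0.04 to 0.05, Tekt4 from -0.05 to 0.14 and Tekt5 from -0.07 to 0.14. Dnah6 missed the fold limit under quantile normalization (-0.99). The replicate block within B0 and BA50, added after the data were seen, left 0 members past an adjusted p of 0.05 and 37 at an unadjusted p under 0.05 (smallest adjusted p 0.194), and changed no call there. Shares of all genes tested are not given for the counts by these alternatives. Such counts cannot be read as particular to the members. Depth is unknown, so its limits could not be computed.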
